A study of Rattus norvegicus with 12 samples.

Results

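Cultured rat kidney tissue, rebuilt from ureteric buds (UBs) and metanephric mesenchyme (MM), was compared with the rat kidney of embryonic day 13 (E13), gene by gene and function by function. The tissue, called recombined here, was made by placing UBs that had arisen in vitro and were still unbranched together with MM, and its RNA was taken after 6 days of culture (n = 2 arrays). The reference was the whole E13 kidney, taken to RNA straight after dissection (n = 3 arrays). These 5 arrays were picked by their labels, and by no measured value, from a series of 12 arrays that also holds kidneys of embryonic day 18 (n = 4) and of week 4 after birth (n = 3). The question of the design was how the tissue relates to normal kidney development, with a 3-fold difference as its measure of change. The strain, the age and number of the embryos behind the MM, the medium and any pooling are not stated in the labels. Nor do the labels say whether replicates came from separate animals or cultures, so p-values here reflect only how these arrays vary, and that variation may be technical.

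In the embryo the UB is an epithelial tube that branches to make the collecting ducts and the ureter. Its tips carry the receptor Ret, which reads the growth factor Gdnf made by the mesenchyme. The MM around the tips holds progenitors that turn into epithelium under Wnt signals and go on to make podocytes and the tubules, and it also holds stroma, vessels and macrophages. A whole E13 kidney carries blood in its vessels, and an explant in culture has no circulation.

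Each level given here is the deposited signal of a probe set, in the order of E13 replicates 1, 2 and 3 and then recombined replicates 1 and 2. A difference is recombined minus E13 on the log2(signal + 271) scale ± SE, from limma's fit over all 12 arrays; the added 271 makes the differences of dim genes look smaller than they are. A gene rose or fell where its limma adjusted p was under 0.05 and its difference at least 3-fold. Levels of different genes come from different probes and are not set against each other. The array medians lay between 799.4 and 1020.3, and the small number of arrays limits the precision. E13 replicates 2 and 3 were at least 3-fold apart at 21 of 22599 probe sets, whereas replicate 1 was so far from them at 165 and 166. The 2 recombined arrays were that far apart at 223, more than any pair within E13, E18 or week 4 (17 to 166). Both are therefore given separately. For some gene groups the counts without either are given too, and counts of the other groups may also change. A recombined array left alone has no spread of its own, and the fit then takes it to vary like the other groups. Since the recombined pair was the furthest apart, that spread may be too small. Calls with 1 array alone are therefore a description and not separate support from each array. The gene groups are 33 lists; a gene of a list is called measured where it has a named probe set that passed the filter on dim signal, and 227 of the 11920 measured genes passed it only through the recombined arrays, so that those had to differ.

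Among differences of at least 3-fold, far more genes were higher than lower in the recombined tissue, but not among differences of any size. Of the 22599 probe sets tested 1098 were called (4.86%), 892 of them higher (3.95%) and 206 lower (0.912%). With each array centred on its median, the share of calls that were higher went from 81.2% to 68.9% and the median difference of all probe sets from -0.0043 to -0.20. With 1 probe set per gene, 599 of 11920 genes were higher (5.03%) and 125 lower (1.05%), together 6.07%, around a median difference of -0.03. The counts of genes that rose or fell in every gene group below are to be read against these shares. At an adjusted p under 0.05 and any fold, 18.4% of genes were higher and 19.2% lower, and at an unadjusted p under 0.05, 22.5% and 24.5%. Counts of a gene group at any fold are to be read against these any-fold shares. The difference was at least 8-fold for 167 probe sets that were higher and 17 that were lower. Recombined replicate 1 alone against E13 gave 1307 calls (5.87%), and replicate 2 alone 918 (4.11%); both sets use the same E13 arrays. Per gene, 5.57% were called higher and 1.53% lower with replicate 1 alone, and 4.01% higher and 0.891% lower with replicate 2 alone. By signal alone, without a test, replicate 1 lay above all 3 E13 arrays for 33.5% of genes and below them for 41.6%. Replicate 2 lay above them for 37.5% and below them for 36.4%.

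**Figure D1:**
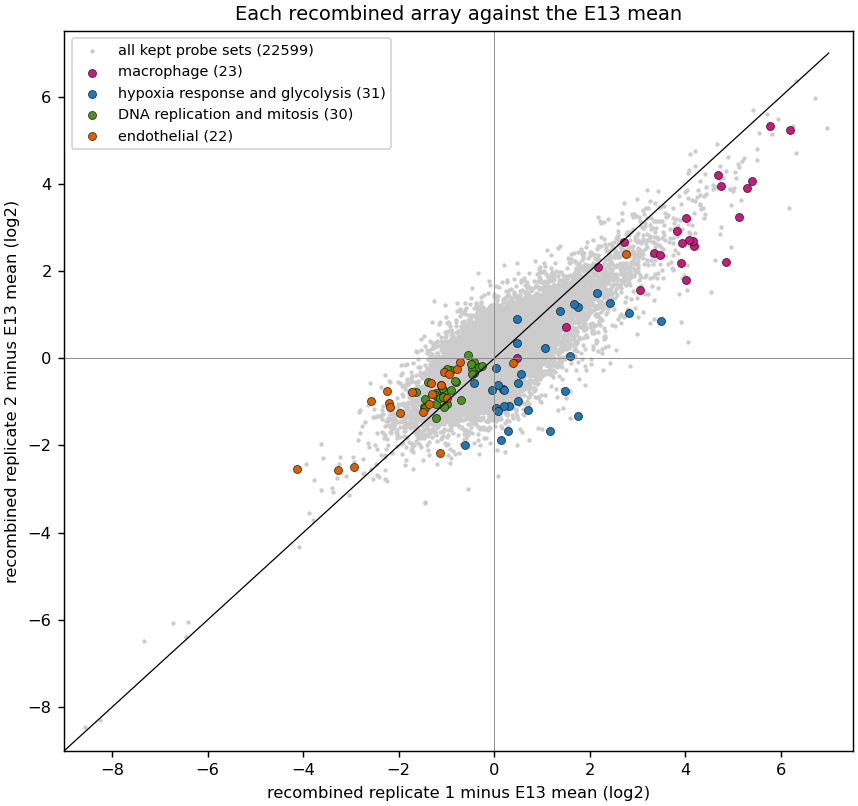
Each point is a probe set, placed by its difference from the E13 mean (log2) on recombined replicate 1 (horizontal axis) and on recombined replicate 2 (vertical axis); both axes share the 3 E13 arrays, and the diagonal marks equal values. Grey points are all 22599 kept probe sets; coloured points are 4 gene groups, of which the 23 macrophage genes all lie below the diagonal, 30 of the 31 hypoxia and glycolysis genes do too, and the cell cycle and endothelial genes lie mostly to the lower left.

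Among the genes with the largest rise were those for matrix, macrophage and calcium-binding proteins. S100g, which encodes the calcium-binding protein calbindin-D9k, stood at 129, 48.8 and 114 at E13 and at 45719.7 and 14079 in the recombined tissue. Col6a3, a chain of type VI collagen, stood at 724, 520.2 and 769.6 at E13 and at 74352 and 76806 in the recombined tissue. The osteopontin gene Spp1 stood at 910.2, 620.3 and 862 at E13 and at 111481 and 65746 in the recombined tissue. In all 3 genes both recombined arrays were far above every E13 array, and for S100g replicate 1 was well above replicate 2. Lilrb4, an inhibitory receptor of myeloid cells, went from 25.3, 74.6 and 72.6 to 24842 and 12828. It passed the filter on dim signal only through the recombined arrays, so that it had to differ, and did not pass it with either of them left out. Mgp, an inhibitor of matrix calcification, went from 1313, 1169.7 and 906 to 72301 and 67065 and rose by 5.65 ± 0.14 (limma adjusted p = 4.01e-12).

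The 20 genes with the largest fall held 7 of red cells, the endothelial genes Plvap, Aplnr and Tek and the cartilage collagens Col9a1 and Col2a1, all given further on, and 8 others. Igdcc3, a cell surface protein of the immunoglobulin family, stood at 12722, 5423 and 7554 at E13 and at 333 and 368 in the recombined tissue, a difference of -3.75 ± 0.30 (limma adjusted p = 6.2e-07). Dusp9, a phosphatase that switches off MAP kinases, stood at 7625, 8797 and 8153 at E13 and at 409 and 778 in the recombined tissue (-3.32 ± 0.21). Both genes were low on both recombined arrays, with no overlap. Cyp26b1, which breaks down retinoic acid, fell from 7645, 6577 and 7785 to 1157 and 879. The lipid-modifying glycosyltransferase gene B3gnt5 (-2.61), the transcription factor gene Ebf2 (-2.55), Fndc3c1 (-2.75), Spin2a (-2.90) and Aard (-2.65) were also among the 20. The other probe set of Cyp26b1 (-1.42) was not called.

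Genes of the ureteric tip and of Ret signalling were measured at lower levels in several cases. Of 16 listed, 12 were measured and 0 were called by limma in either direction, with a median of -0.59. At an unadjusted p under 0.05, 6 were lower and 1 higher, and 5 and 1 after adjustment. Over all genes 24.5% were lower and 22.5% higher unadjusted, and 19.2% and 18.4% after adjustment. Ret stood at 4512, 4619 and 4522 at E13 and at 2268 and 1628 in the recombined tissue, a difference of -1.13 ± 0.19 (limma adjusted p = 0.000405). Its co-receptor Gfra1 stood at 7102, 6086 and 5844 at E13 and at 1598 and 4028 in the recombined tissue, with replicate 1 below replicate 2. Both Ret and Gfra1 lay below every E13 array on both recombined arrays. The probe sets of Gfra1 differed by -1.22, the one counted here, and by -1.94, which was called lower. Etv4, a transcription factor downstream of Ret, stood at 6021, 3699 and 1544 at E13 and at 728 and 2291 in the recombined tissue. Etv5, its relative, stood at 3293, 3109 and 2526 at E13 and at 1606 and 1833 in the recombined tissue. The E13 arrays spread widely at Etv4, and recombined replicate 2 lay within that spread. Emx2, a homeobox gene of the UB epithelium, pointed the other way, from 4261, 3568 and 4689.7 to 8771 and 13259 (1.32 ± 0.17, limma adjusted p = 3.64e-05). Gdnf itself was dim, at 299, 621 and 207 at E13 and at 94.2 and 182 in the recombined tissue, and the groups differed by -0.62 ± 0.33 (limma adjusted p = 0.176).

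With replicate 1 alone 3 of the 12 tip genes fell, Gfra1 (-1.82), Etv4 (-1.84) and Robo2 (-1.64), a receptor for Slit proteins; over all genes 1.53% fell in that setting. With replicate 2 alone 1 rose, Emx2 (1.61), against 4.01% of all genes. Without E13 replicate 3, 1 of the 12 fell. In bulk RNA, fewer cells of a type and less RNA per cell cannot be told apart, here and for all cell types below.

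Genes of the ureteric trunk and collecting duct differed little, apart from a steroid enzyme. Of 26 listed, 22 were measured, 1 rose and 0 fell, with a median of 0.11; 4 were higher and 1 lower at an unadjusted p under 0.05. The gene that rose was Hsd11b2, the enzyme that inactivates glucocorticoids in collecting duct cells, at 3958, 4757 and 5366 at E13 and at 29019.8 and 26184 in the recombined tissue (2.50 ± 0.17, limma adjusted p = 1.08e-07). Its recombined arrays were close to each other and far above E13. The keratin gene Krt7 stood at 55.9, 419.8 and 356 at E13 and at 1217 and 1135 in the recombined tissue (1.47 ± 0.24, just under 3-fold). Krt8, another keratin gene of simple epithelia, lay between 1654 and 1826 on all 5 arrays. Cdh1, the adhesion protein of epithelia, stood at 2770.2, 2805 and 2360.0 at E13 and at 1686 and 3335 in the recombined tissue, so replicate 1 lay below and replicate 2 above every E13 array. Gata2, a transcription factor of the duct, stood at 4528, 2724 and 3261 at E13 and at 4798 and 11431 in the recombined tissue, and was called higher with replicate 2 alone (1.66), when 2 of the 22 rose. The water channel gene Aqp2 was near the bottom of the scale on all 5 arrays, at 45.1, 43.9 and 43.0 at E13 and at 81.8 and 73.4 in the recombined tissue.

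Several genes of nephron progenitors fell, and others kept most of their signal. Of 21 listed, 15 were measured, 4 fell and 0 rose, with a median of -0.73. Six2, Cited1 and Osr1, which help define this cell type, were not analysed here, so the group rests on its other members. Eya1, a transcriptional cofactor, stood at 12618, 20434 and 13448 at E13 and at 3348 and 6209 in the recombined tissue (-1.67 ± 0.23). The homeobox gene Meox1 went from 4515, 4141 and 3771 to 738 and 1242. Its relative Meox2 went from 3629, 3365 and 3373 to 529 and 1102. All 3 fell without overlap between the groups, and in each replicate 1 was the lower of the recombined arrays. The RNA-binding protein gene Igf2bp1, high in embryonic tissues, fell from 4034, 8069 and 9286 to 1205 and 718 (-2.53 ± 0.33).

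Wt1, a transcription factor of mesenchyme and podocytes, stood at 28347, 18456 and 18116 at E13 and at 11563 and 13911 in the recombined tissue (-0.73 ± 0.18, limma adjusted p = 0.00718). Sall1, a zinc finger factor needed for UB invasion, stood at 11851, 15903 and 7982 at E13 and at 7219.6 and 12131 in the recombined tissue, within or close to the E13 range. Pax2, which is active in both UB and MM, stood at 4729, 4512 and 2552 at E13 and at 1033 and 4291 in the recombined tissue: replicate 1 was below every E13 array and replicate 2 lay within the E13 range. With replicate 1 alone 6 of the 15 fell, and with replicate 2 alone 1 did, Igf2bp1 (-2.82), while Eya1 (-1.25), Meox1 (-1.54) and Meox2 (-1.44) were no longer called. A pseudocount 4 times as large left 1 of the 4 calls.

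Genes of the first nephron epithelium went both ways: of 22 listed, 20 were measured, 3 rose, 1 fell, and the median was 0.03. Wnt4, the signal that turns mesenchyme into epithelium, stood at 3373, 3078 and 2265 at E13 and at 9779 and 14381 in the recombined tissue (1.95 ± 0.33, limma adjusted p = 0.000459). Osr2, a zinc finger factor of mesenchyme, went from 774, 588 and 801 to 8278 and 10153 and rose by 3.26 ± 0.32. Both genes were higher on replicate 2 than on replicate 1, and on both arrays above all of E13. Papss2, an enzyme of sulfate donor synthesis, also rose (1.70 ± 0.28), while another of its probe sets (1.13) was not called. Mecom, a transcription factor of the early tubule, fell from 17438, 19539 and 18556 to 2397 and 5477 (-2.26 ± 0.22).

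The 2 recombined arrays parted at Lhx1 and Pax8, both factors of the renal vesicle. Lhx1 stood at 1356, 901 and 1025 at E13 and at 546 and 2356 in the recombined tissue. Pax8 stood at 2120.1, 2301 and 1760.1 at E13 and at 1503 and 4876 in the recombined tissue; in both genes replicate 1 was below all 3 E13 arrays and replicate 2 above them. The same split was seen at Hey1, a Notch target, so at 3 of the 20 genes, against 3.71% of all 11920. Jag1, a Notch ligand, stood at 1661, 4459.9 and 3182 at E13 and at 1877 and 3489.7 in the recombined tissue, with both recombined arrays inside the E13 range. With replicate 1 alone 2 of the 20 fell, Mecom (-2.81) and Sfrp2 (-1.75), a secreted Wnt modulator.

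Few markers of mature nephron segments differed by 3-fold. Of 18 podocyte genes listed, 12 were measured and 0 were called by limma, with a median of 0.32. At an unadjusted p under 0.05, 4 were higher and 2 lower, against 22.5% and 24.5% of all genes. Nphs1, the slit diaphragm protein nephrin, stood at 23.9, 21.8 and 153 at E13 and at 16.4 and 360.3 in the recombined tissue, so only replicate 2 was above E13. Ptpro, a phosphatase of podocytes, went from 666, 518 and 414 to 2019.7 and 1168 (1.19 ± 0.22), and Foxc2, a factor of their precursors, from 1754, 1327 and 1584 to 412 and 355 (-1.47 ± 0.22). Both differences were below 3-fold, but the 3 probe sets of Foxc2 ranged from -1.79 to -0.55 and 1 of them was called lower. With each array centred on its median or quantile normalized, or against E13 replicate 1 alone, 1 of the 12 was called lower.

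Of 31 proximal tubule genes listed, 27 were measured, 2 rose and 0 fell, with a median of 0.07. Slc13a3, a carrier of dicarboxylates, stood at 18.6, 26.7 and 33.9 at E13 and at 1567 and 962 in the recombined tissue (2.34 ± 0.24). Anpep, an aminopeptidase of the brush border that other cell types carry as well, stood at 1219, 1114 and 1039.9 at E13 and at 6406 and 5581 in the recombined tissue (2.17 ± 0.15). With a pseudocount 4 times as large 1 rose. The segment's own regulator Hnf4a stayed dim at 46.5, 40.5 and 19.8 at E13 and at 37.2 and 30.6 in the recombined tissue. Lrp2, the endocytic receptor megalin, stood at 927, 1217 and 791 at E13 and at 808 and 2445 in the recombined tissue. The phosphate carrier gene Slc34a1 stood at 385, 178 and 116 at E13 and at 271 and 811 in the recombined tissue; in both, replicate 2 lay above every E13 array and replicate 1 did not. Of 21 genes listed for the loop of Henle and distal tubule 15 were measured and 0 were called by limma, with a median of 0.02; 4 were higher and 1 lower at an unadjusted p under 0.05. Slc12a1, the salt carrier of the thick ascending limb, stood at 187, 168 and 67.2 at E13 and at 156 and 75.3 in the recombined tissue, with the groups overlapping.

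**Figure D2:**
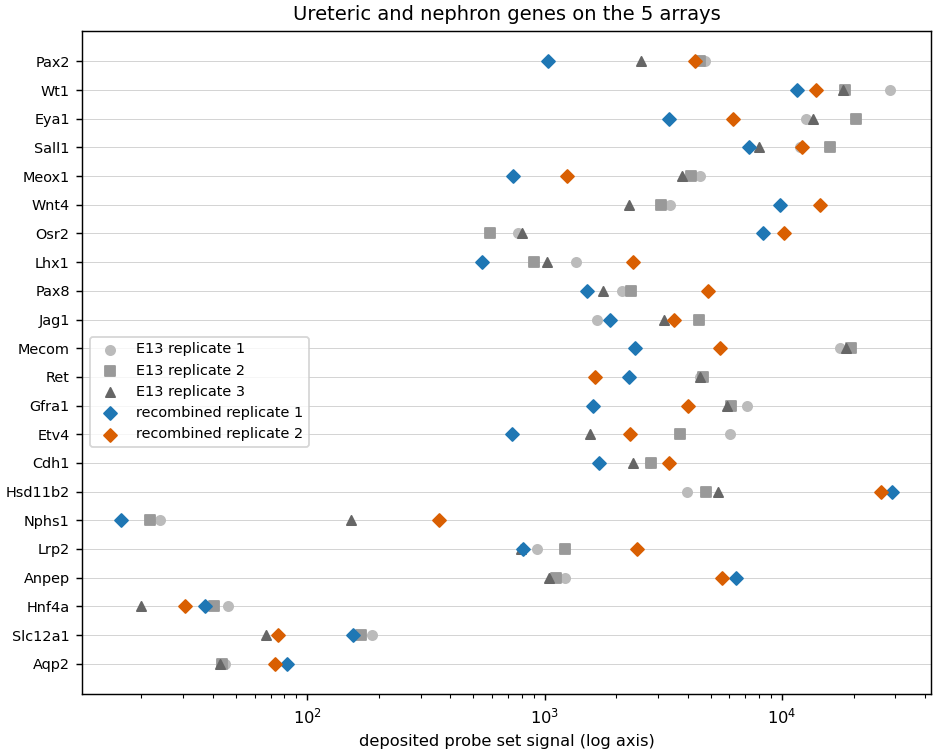
Deposited signal (log axis) of 22 ureteric and nephron genes on the 3 E13 arrays (grey) and the 2 recombined arrays (blue, replicate 1; orange, replicate 2). Levels may be compared along a row and not between rows. Wnt4, Osr2, Hsd11b2 and Anpep lie above E13 on both recombined arrays, Eya1, Meox1 and Mecom below, and for Pax2, Lhx1, Pax8 and Cdh1 the 2 recombined arrays are far apart, with replicate 1 the lower.

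Of 14 genes listed for urothelium and basal epithelium, 13 were measured, 2 rose and 0 fell, with a median of 0.15. Upk1b, a plaque protein of the urothelium, stood at 63.5, 105 and 186 at E13 and at 3043 and 1848 in the recombined tissue. Psca, a surface protein of that epithelium, stood at 44.0, 42.9 and 56.4 at E13 and at 3551 and 1818 in the recombined tissue (3.15 ± 0.29). Both were bright on both recombined arrays; 1 was called with a pseudocount 4 times as large. Upk3a, another plaque protein, stood at 272, 306 and 164 at E13 and at 480.0 and 319 in the recombined tissue, slightly above E13 and with no call. The basal keratin gene Krt5 stood at 635, 333 and 442 at E13 and at 488 and 421 in the recombined tissue, with overlap.

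Several genes of the renal stroma differed, most of them by less than 3-fold. Of 19 listed, 16 were measured, with a median of -0.48. Of the 16, 2 fell (12.5%, against 1.05% of all genes) and 1 rose (6.25%, against 5.03%). At a limma adjusted p under 0.05 and any fold, 7 were lower and 4 higher, against 19.2% and 18.4% of all genes. Foxd1, the defining factor of the stroma, was not analysed here. Tbx18, a T-box factor of the ureteric mesenchyme, stood at 4545, 5192 and 4121 at E13 and at 826 and 811 in the recombined tissue (-2.16 ± 0.19). Foxd2 stood at 6542, 5908 and 6211 at E13 and at 1155 and 2415 in the recombined tissue (-1.73 ± 0.21). Both were low on both recombined arrays. Penk, the enkephalin precursor, rose from 905, 45.2 and 146 to 1636 and 2646, with E13 replicate 1 far above the other E13 arrays; it passed the filter on dim signal only through the recombined arrays. Receptors of the platelet-derived growth factor differed by less than 3-fold, Pdgfra by 0.50 ± 0.15 and Pdgfrb by 0.81 ± 0.25. With replicate 2 alone Foxd2 was no longer called (-1.27) and only Tbx18 fell, and with replicate 1 alone Penk was not called (1.83); 0 of the 16 were called with a pseudocount 4 times as large.

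Most endothelial genes were lower. Of 24 listed, 22 were measured, 8 fell and 1 rose, with a median of -1.22. At a limma adjusted p under 0.05 and any fold 18 were lower, against 19.2% of all genes. Tek, the receptor for angiopoietins, stood at 4012, 3621 and 4737 at E13 and at 297 and 502 in the recombined tissue. Plvap, which forms the diaphragms of vessel pores, stood at 9789, 6241 and 7002 at E13 and at 173 and 1065 in the recombined tissue. Aplnr, the apelin receptor, stood at 3036, 2166 and 2977 at E13 and at 37.6 and 235 in the recombined tissue. All 3 were many-fold lower on both recombined arrays, and replicate 1 was the lower of the pair each time. Kdr, the main receptor for Vegfa, stood at 7641, 7581 and 8322 at E13 and at 1429.5 and 4539 in the recombined tissue (-1.504 ± 0.303). The adhesion protein gene Pecam1 stood at 2407, 1336 and 1606 at E13 and at 695 and 1335 in the recombined tissue (-0.69 ± 0.25). Neither passed 3-fold, and Pecam1 on replicate 2 nearly met the lowest E13 array. Cldn5, a tight junction protein of vessels that other epithelia carry too, was the exception and rose from 6244, 3837 and 6092 to 37047 and 28787.

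The count of 8 endothelial genes that fell was 4 with recombined replicate 2 alone, 9 with replicate 1 alone and 5 without E13 replicate 1. It was 3 with a pseudocount 4 times as large. Aplnr has another kept probe set, which differed by -0.39.

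Red cell genes fell most of all. Of 25 listed, 17 were measured, 9 fell and 0 rose, with a median of -1.67. Hbz, an embryonic globin, stood at 110258, 95855 and 132055 at E13 and at 26.5 and 50.2 in the recombined tissue. Hbg1 stood at 92106, 83833 and 114903 at E13 and at 45.3 and 37.6 in the recombined tissue. Both recombined arrays were thus at the bottom of the scale. Hbe1 stood at 111445, 127747 and 141464 at E13 and at 932 and 1614 in the recombined tissue. Hbb stood at 6265, 5665 and 6204 at E13 and at 338 and 478 in the recombined tissue. Hbe2 stood at 2188, 1462 and 1735 at E13 and at 38.1 and 61.0 in the recombined tissue. Ahsp, the chaperone of alpha globin, went from 3868, 3076 and 4459 to 25 and 313, and Alas2, the heme synthesis enzyme of red cells, from 3663, 2703 and 3030.4 to 172 and 379.8. Not every gene of the list moved. Gata1, the main factor of red cell formation, stood at 497, 507 and 431 at E13 and at 340.0 and 621 in the recombined tissue. Epor, the erythropoietin receptor, stood at 1008, 694 and 485 at E13 and at 676 and 802 in the recombined tissue. In both the recombined arrays lay around or within the E13 levels.

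Nearly all macrophage genes measured rose. Of 27 listed, 23 were measured, 21 rose and 0 fell, with a median of 3.38; 3 of the 23 passed the filter only through the recombined arrays. The 2 that did not rise were Cx3cr1, a chemokine receptor, and Pf4, a platelet chemokine also made by macrophages (1.12 ± 0.26). Csf1r, the receptor for the macrophage growth factor, stood at 1576, 1039 and 933 at E13 and at 9141 and 8856 in the recombined tissue (2.70 ± 0.18, limma adjusted p = 1.2e-07). Adgre1, which encodes the surface protein F4/80, stood at 377, 177 and 145 at E13 and at 20634 and 7944 in the recombined tissue. Ptprc, the pan-leukocyte protein CD45, stood at 388, 168 and 252 at E13 and at 8275 and 4696 in the recombined tissue. Every one of these recombined levels was several-fold above the highest E13 array. C1qa, a chain of the complement starter C1q, went from 669, 652 and 734 to 17077 and 5457, and Lyz2, lysozyme, from 1075, 929.7 and 1219 to 72535 and 53603.

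Macrophage genes were also measured in E13 kidney, the mannose receptor gene Mrc1 at 1205, 1922 and 1869 for example. The summed signal of the 23 genes was 15981.8 to 20970 on the E13 arrays, 423664 on recombined replicate 1 and 218679 on replicate 2. All 23 were higher on replicate 1 than on replicate 2, by a median of 1.08, whereas 44.4% of all genes were. The gap was widest for Fcgr2b, an antibody receptor, at 9902 and 1358, and for Cd14, a receptor for bacterial lipid, at 16451 and 3336; Csf1r at 9141 and 8856 and Mrc1 at 8335 and 7874 differed little. The count of 21 was 18 with replicate 2 alone and 19 with replicate 1 alone; Fcgr2b and Trem2 did not pass the filter in either setting. Cd163, a scavenger receptor, and the integrin gene Itgam never passed it: Cd163 stood at 10.5, 67.0 and 48.8 at E13 and at 83.6 and 18.7 in the recombined tissue. Itgam stood at 80.6, 51.8 and 77.6 at E13 and at 1397 and 197 in the recombined tissue.

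Lymphocyte genes and those of antigen presentation gave 1 call. Of 18 listed, 10 were measured, 1 rose and 0 fell, with a median of 0.48. Among those below the filter were the T cell gene Cd3e, at 83.3 and 8.98 in the recombined tissue, and the B cell gene Ms4a1, at 17.9 and 711. The invariant chain Cd74 stood at 259, 96.1 and 392 at E13 and at 493 and 427 in the recombined tissue. RT1-DMa, which helps load peptides, rose from 1027, 962 and 860.3 to 4482 and 2721 (1.63 ± 0.29) but was no longer called with replicate 2 alone (1.30), without E13 replicate 3, against E13 replicate 1 alone, with either other scaling, with the replicate block or with a pseudocount 4 times as large.

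Secreted inflammatory factors rose in most cases measured. Of 24 cytokine, chemokine and complement genes listed, 14 were measured, 10 rose and 1 fell, with a median of 2.52; 2 of the 14 passed the filter only through the recombined arrays. The macrophage genes, 21 of 23 higher and with a summed signal of 218679 to 423664 in the recombined tissue against 15981.8 to 20970 at E13, moved with these genes and with the lysosomal, protease and injury genes that follow; their part in those results was not tested. Ccl2, which draws monocytes, stood at 209.6, 133 and 165 at E13 and at 31273 and 4541 in the recombined tissue (4.81 ± 0.59). Ccl6 stood at 40.1, 56.5 and 53.5 at E13 and at 14210.0 and 8619 in the recombined tissue (5.14 ± 0.26). Complement C3 went from 213, 272 and 194 to 8151 and 3427, and Il33, an alarm cytokine of tissue cells, from 906, 1069 and 1082 to 10855 and 10019. Il33 was nearly equal on the recombined arrays, while Ccl2 and C3 were higher on replicate 1. Csf1, the growth factor that Csf1r reads, stood at 5823, 3485 and 3757 at E13 and at 5371 and 4710.2 in the recombined tissue; its 4 probe sets differed by 0.23 to 1.58, with no call. Cxcl12, a chemokine of mesenchyme, fell from 62777, 54795 and 62884 to 19178 and 20255 (-1.59 ± 0.13); it was just past 3-fold and not called without recombined replicate 1, without E13 replicate 1 or 3, with quantile normalization or with a pseudocount 4 times as large, and another of its probe sets differed by 0.04.

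Several cytokine genes that did not pass the filter on dim signal were bright on recombined replicate 1. Il1b stood at 164, 176 and 343 at E13 and at 4966 and 473 in the recombined tissue. Tnf stood at 334, 111 and 293 at E13 and at 2031 and 632 in the recombined tissue. The neutrophil chemokine gene Cxcl1 stood at 30.3, 134 and 219 at E13 and at 2344 and 666 in the recombined tissue. In these 3 genes replicate 1 was several-fold above replicate 2, and both were above E13. They were not tested.

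Genes of the lysosome and of lipid handling rose in part. Of 26 listed, 23 were measured, 12 rose and 0 fell, with a median of 1.68; 8 rose with arrays centred on their medians or with a pseudocount 4 times as large. Apoe, a lipid carrier, stood at 1707, 989.9 and 1264 at E13 and at 95159.6 and 70473 in the recombined tissue. Gpnmb, a glycoprotein of lysosomes in phagocytes, stood at 1909, 1367 and 1459.6 at E13 and at 77731 and 94610.5 in the recombined tissue. The lipoprotein lipase gene Lpl stood at 1048, 868 and 1270.1 at E13 and at 36106 and 22954 in the recombined tissue. Apoe and Lpl were higher on replicate 1, and Gpnmb on replicate 2. Abca1, the exporter of cholesterol, was alike on both, from 4004, 3905 and 3895 to 17489 and 18613 (2.12 ± 0.27). Fabp4, a fatty acid carrier, went from 9.92, 147 and 12.5 to 9563 and 4441, while Pparg, the factor known to drive it in fat cells, stood at 163, 423 and 502 at E13 and at 535 and 582 in the recombined tissue with no call.

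**Figure D3:**
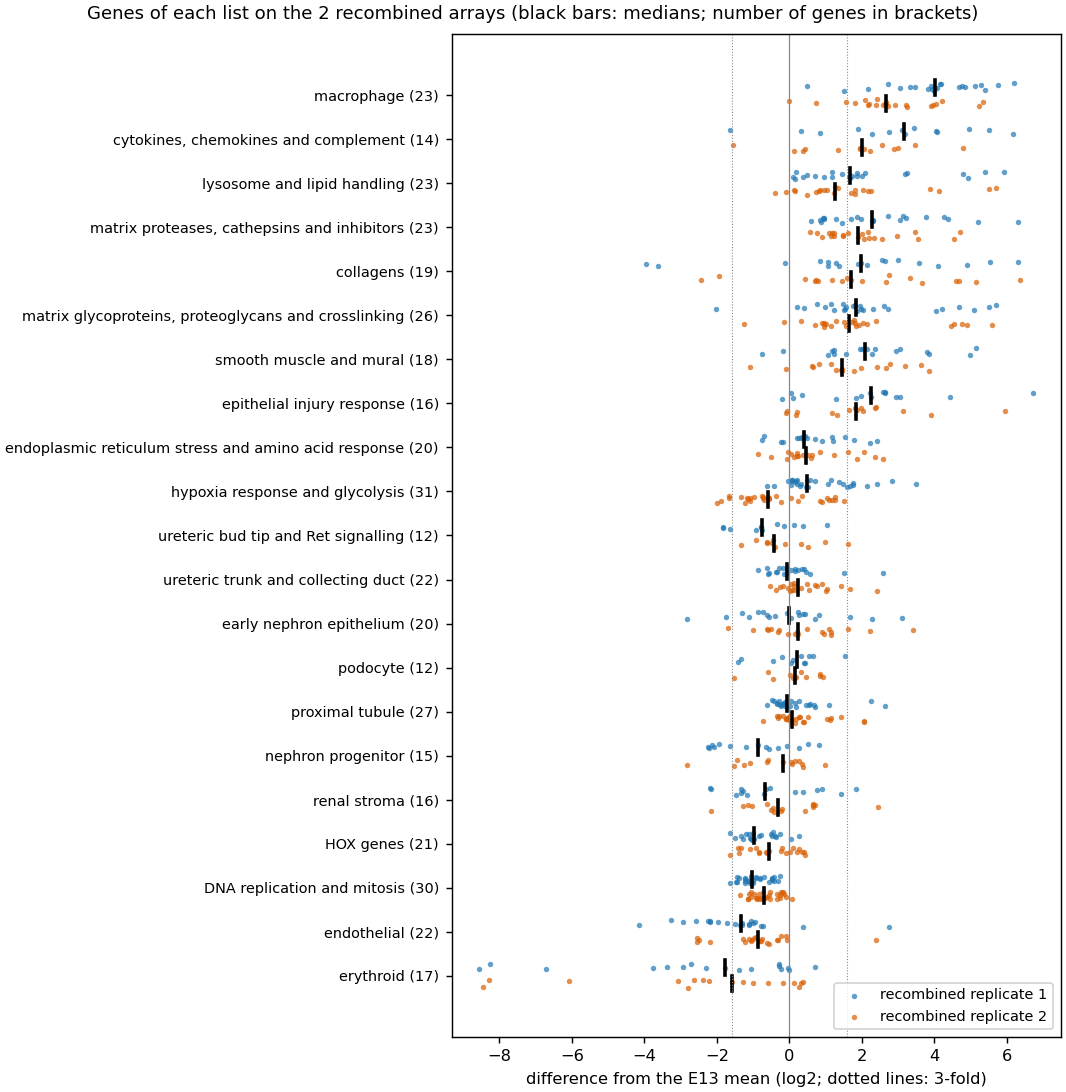
Differences from the E13 mean (log2, horizontal axis) for the genes of 21 lists (rows, with the number of genes) on recombined replicate 1 (blue) and replicate 2 (orange); black bars are medians over the genes, and dotted lines mark 3-fold. Macrophage genes have a median of 4.01 on replicate 1 and 2.68 on replicate 2, and erythroid genes -1.76 and -1.57; in the hypoxia and glycolysis row the medians lie on different sides of 0, at 0.49 and -0.60.

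Many collagen genes rose, and the cartilage collagens fell. Of 19 genes, all measured, 10 rose and 2 fell, with a median of 1.92. The chains of type VI collagen differed most. Col6a1 stood at 1122, 1164 and 1031 at E13 and at 63524 and 48774 in the recombined tissue, a difference of 5.35 ± 0.20. Col6a2 went from 966, 503 and 445 to 26025 and 21197. The fibrillar collagen gene Col1a1 stood at 20838, 10048 and 11111 at E13 and at 107290.0 and 170000.0 in the recombined tissue (3.32 ± 0.33). Col3a1, of the same class, stood at 54469, 39661 and 51182 at E13 and at 118148 and 145279 in the recombined tissue (1.44 ± 0.17), just under 3-fold. Col1a1 was higher on replicate 2 than on replicate 1, as was Col14a1, which binds collagen fibres, at 11858 and 17812 against 712, 218 and 461. Col4a1 of the basement membrane differed by 1.26 ± 0.20. The cartilage collagen gene Col2a1 fell from 36127, 18570.1 and 14752 to 1484 and 5343. Col9a1, which lines cartilage fibres, fell from 20417, 19185 and 16508 to 952 and 3237, and in both replicate 1 was the lower. The probe sets of Col6a2 differed by 1.41 to 4.75 and those of Col6a3 by 3.44 to 6.34, so the size of these differences depends on the probe set.

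Many other matrix genes rose. Of 27 genes listed for matrix glycoproteins, proteoglycans and crosslinking, 26 were measured, 14 rose and 1 fell, with a median of 1.65. Lox, the enzyme that crosslinks collagen and elastin, stood at 396, 385 and 398 at E13 and at 29754 and 15210.5 in the recombined tissue (5.02 ± 0.35). Tnc, tenascin-C, stood at 1337, 557 and 1053 at E13 and at 41326 and 26276 in the recombined tissue. The proteoglycan decorin, Dcn, stood at 1319, 1789 and 3200.5 at E13 and at 57005 and 67071 in the recombined tissue. All 3 were over 10 times the highest E13 level on both recombined arrays. Elastin, Eln, went from 1063, 524 and 437 to 5690.1 and 4463 (2.55 ± 0.40), with another probe set at 1.49 that was not called. Periostin, Postn, was bright already at E13, at 17279.6, 15870.4 and 17919, and reached 48342 and 61493; its rise of 1.67 ± 0.23 was not called with replicate 1 alone (1.49). Fibronectin, Fn1, differed by 1.503 ± 0.152, just under 3-fold. The gene that fell was Efemp1, a fibulin, from 13348, 12132 and 10904 to 2746 and 4898 (-1.65 ± 0.22); it was not called without E13 replicate 1, with replicate 2 alone or with a pseudocount 4 times as large.

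Matrix proteases and cathepsins rose as well. Of 27 listed with their inhibitors, 23 were measured, 14 rose and 0 fell, with a median of 2.10. All 23 were higher at a limma adjusted p under 0.05 and any fold, against 18.4% of all genes. Of the 23, 2 had passed the filter only through the recombined arrays. Mmp12, the elastase of macrophages, stood at 392, 37.3 and 81.5 at E13 and at 32648 and 10689 in the recombined tissue. Mmp9, a gelatinase, stood at 34.4, 39.5 and 11.1 at E13 and at 10691 and 6645 in the recombined tissue. Both started near the bottom of the scale and were higher on replicate 1. Mmp2, a gelatinase of mesenchyme, was already bright at E13, at 11488, 9181 and 8525, and stood at 26976 and 23209 (1.35 ± 0.19, not called). Cathepsin S, Ctss, went from 694, 870.0 and 660.2 to 20526 and 10796 and cathepsin D, Ctsd, from 8194, 3419.7 and 5002 to 44812 and 27344. Ctsk, the cathepsin of bone-resorbing cells, was higher on replicate 2, at 2649.5 and 4955 against 276, 125 and 132. The inhibitor Timp1 differed by 1.09 ± 0.19 and was not called.

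Most genes listed for smooth muscle and mural cells rose. Of 19 listed, 18 were measured, 11 rose and 0 fell, with a median of 1.82; 1 of the 18, Lmod1, passed the filter only through the recombined arrays. Acta2, smooth muscle actin, stood at 15485, 5859 and 7240.1 at E13 and at 39544 and 34982 in the recombined tissue (2.06 ± 0.41). Myh11, the myosin heavy chain of smooth muscle, stood at 1718, 964 and 631 at E13 and at 46165 and 15788 in the recombined tissue (4.39 ± 0.37). Actg2, an actin of visceral smooth muscle, stood at 2217, 1233 and 1915 at E13 and at 63825 and 28616 in the recombined tissue. The groups did not overlap, and replicate 1 was the higher recombined array each time. Their regulator Myocd, myocardin, went from 853, 3951 and 2469 to 11095 and 7856 (2.03 ± 0.43), and Synpo2, which binds actin, from 612, 1982 and 1577 to 21141 and 13781, although another of its probe sets differed by 0.40. The pericyte gene Rgs5 stood at 2437, 2278 and 3222 at E13 and at 1440.1 and 1086 in the recombined tissue (-0.92 ± 0.21). Notch3, a receptor of mural cells, stood at 2020.4, 799 and 596 at E13 and at 859.6 and 944 in the recombined tissue, with overlap. Smooth muscle calls numbered 8 with replicate 2 alone and 10 with replicate 1 alone.

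Many genes known from injured tubules rose. Of 18 listed, 16 were measured, 11 rose and 0 fell, with a median of 2.0005; 1 of the 16, Atf3, passed the filter only through the recombined arrays. Lcn2, which binds bacterial iron carriers and marks tubular injury, stood at 333, 383 and 275 at E13 and at 3438 and 2789 in the recombined tissue (2.49 ± 0.25). Cd44, the hyaluronan receptor, stood at 379, 455 and 252 at E13 and at 4538 and 2297 in the recombined tissue. Anxa1, an annexin, stood at 4259.9, 3598 and 4300.3 at E13 and at 35378 and 37735 in the recombined tissue. All 3 were clear of E13 on both recombined arrays. Hmox1, the heme-degrading enzyme, went from 1317, 952 and 1064 to 8208 and 3988. The clusterin gene Clu went from 865, 717 and 1081 to 3872 and 3882, with near equal recombined arrays. Havcr1, which encodes the tubular injury marker Kim-1, stood at 362, 61.3 and 351 at E13 and at 50.0 and 66.0 in the recombined tissue and did not pass the filter on dim signal. Vcam1 stood at 7478, 7850.4 and 6748 at E13 and at 9449 and 7001 in the recombined tissue (0.14 ± 0.15). Spp1, Cd44 and Anxa1 are known in macrophages too, and the count of 11 was 6 with a pseudocount 4 times as large.

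Asns, Trib3 and Chac1, genes known to answer to a shortage of amino acids, rose. Of 20 genes listed for that response and for chaperones of the endoplasmic reticulum, all measured, 3 rose and 0 fell, with a median of 0.35. Asns, asparagine synthetase, stood at 1678, 1589.6 and 2058 at E13 and at 10602 and 10195 in the recombined tissue (2.39 ± 0.15, limma adjusted p = 5.26e-08). Trib3, a pseudokinase that dampens the response, stood at 253, 299 and 417 at E13 and at 2497 and 3258 in the recombined tissue (2.41 ± 0.28). Chac1, which degrades glutathione, stood at 1189.8, 1018 and 751 at E13 and at 4023 and 4926 in the recombined tissue (1.93 ± 0.20). In Asns the recombined arrays differed by only 0.06, and in Trib3 and Chac1 replicate 2 was the higher. The factor Ddit3 was just under 3-fold, from 1235, 954 and 1158 to 3696 and 3964 (1.57 ± 0.16), and Atf4, which acts upstream, differed by 0.88 ± 0.15. The chaperone gene Hspa5, a gauge of unfolded proteins in the reticulum, stood at 65298, 71335 and 70134 at E13 and at 58249 and 67492 in the recombined tissue, with no call. With replicate 2 alone 5 of the 20 rose, and 1 did with a pseudocount 4 times as large.

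The factors Atf4 and Ddit3 are known to bind DNA elements of the form TGATGNAA, and the promoters of Trib3 and Chac1 hold one each. Both stretches are given 5′ to 3′ as the 250 bases before the annotated start (RefSeq, build GRCr8), with the match in capitals. For Trib3 (chr3:161275534-161275783, minus strand) the match begins 21 bases before the start, and for Chac1 (chr3:126795881-126796130, plus strand) 167 bases before it; both read TGATGNAA on the other strand.
Trib3: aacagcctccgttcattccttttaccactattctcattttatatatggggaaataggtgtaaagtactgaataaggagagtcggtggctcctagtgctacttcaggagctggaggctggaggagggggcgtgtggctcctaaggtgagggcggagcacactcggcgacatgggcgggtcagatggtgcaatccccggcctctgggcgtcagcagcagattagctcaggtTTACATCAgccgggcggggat
Chac1: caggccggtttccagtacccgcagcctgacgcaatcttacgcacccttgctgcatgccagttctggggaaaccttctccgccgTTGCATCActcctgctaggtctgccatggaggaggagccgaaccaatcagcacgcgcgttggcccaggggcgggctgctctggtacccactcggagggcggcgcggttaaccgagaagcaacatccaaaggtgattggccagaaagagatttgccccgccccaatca
Searched on both strands, the motif was in 905 of 27457 promoters of this length (3.3%) and in 3 (16.7%) of the 18 promoters found for the 20 genes, the third being that of Herpud1. The window before Asns holds no match, which says only that these letters are not in it. A match is a description of sequence and no evidence that a factor was bound there.

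Igf1 rose, while Igf2 showed no difference past the test. Igf1, a growth factor known for its role after birth, stood at 4179.6, 3133 and 2331 at E13 and at 73619 and 45976 in the recombined tissue (4.10 ± 0.26, limma adjusted p = 6.51e-08). Igf2, its embryonic counterpart, stood at 106633, 86168 and 96165 at E13 and at 77169 and 102809 in the recombined tissue, with overlap. Of 18 genes listed for this axis and for imprinted growth control, 17 were measured, 6 rose and 2 fell, with a median of 0.21. Igfbp7, a binding protein, rose from 4579, 3388 and 3934 to 31333 and 39547, and Meg3, an imprinted RNA, from 6295, 2741 and 2243 to 16081 and 15139. Cdkn1c, an imprinted inhibitor of cell division, fell from 82797, 94584 and 101751 to 20124 and 28619.8 (-1.94 ± 0.19), and Gpc3, a growth-restraining proteoglycan, from 39951, 49757 and 59319 to 10298 and 18905 (-1.79 ± 0.25), although another probe set of Gpc3 differed by -0.46. Of the 17, 1 fell with replicate 2 alone. Set against E13 replicate 1 alone, 3 rose.

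The activin subunit genes rose. Inhba, the activin A subunit, stood at 1462, 1581 and 1769 at E13 and at 23666 and 12466 in the recombined tissue (3.22 ± 0.27). Inhbb, the activin B subunit, stood at 25.8, 56.8 and 106 at E13 and at 1485 and 1393 in the recombined tissue (2.36 ± 0.29). Both were clear of E13 on both arrays. Follistatin, Fst, which binds activin, stood at 3856, 3319 and 4330.0 at E13 and at 2011 and 2279 in the recombined tissue (-0.76 ± 0.20). Of 23 genes listed for transforming growth factor beta, activin and BMP signalling, 22 were measured, 4 rose and 0 fell, with a median of 0.13; Inhbb and Ltbp2 passed the filter only through the recombined arrays. Bmp4 stood at 6328, 3318 and 4586 at E13 and at 1045 and 1829 in the recombined tissue (-1.55 ± 0.26). Bmp7, a survival factor of progenitors, stood at 4408, 2888 and 2714 at E13 and at 1298 and 1699.7 in the recombined tissue (-1.01 ± 0.21); both differences had a limma adjusted p under 0.05 and missed 3-fold. With replicate 2 alone 2 of the 22 rose, and with replicate 1 alone 2 fell, Bmp4 (-1.89) among them. The 4 that rose were 1 with a pseudocount 4 times as large and 2 under the 60th percentile filter, and 1 fell under either other scaling. Another probe set of Inhba differed by 0.93.

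The Wnt ligand Wnt5a and several antagonists rose. Of 23 Wnt genes listed, 19 were measured, 4 rose and 1 fell, with a median of -0.34. Wnt5a, a ligand that acts apart from beta-catenin, stood at 646, 475 and 683 at E13 and at 3418 and 2753 in the recombined tissue (1.94 ± 0.23). The antagonist gene Dkk3 rose from 2066, 1708 and 2047 to 7612 and 7638, although another of its probe sets differed by 0.32. Frzb, also an antagonist, fell from 12476, 11304 and 11713 to 3094 and 3203 (-1.82 ± 0.16). The recombined arrays were close to each other in these 3 genes. Axin2, a target of beta-catenin, stood at 2028, 3238 and 2012 at E13 and at 1512 and 4066 in the recombined tissue, with replicate 1 below and replicate 2 above E13. The 4 that rose were 2 when arrays were centred on their medians or quantile normalized, and 0 with a pseudocount 4 times as large.

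HOX genes, which mark position along the body, were lower in many cases, by less than 3-fold. Of 31 listed, 21 were measured and 0 were called by limma, with a median of -0.76. At an unadjusted p under 0.05, 12 were lower and 0 higher, and the same numbers held after adjustment. Over all genes 24.5% were lower unadjusted and 19.2% after adjustment. Hoxd10 stood at 18049.9, 17957 and 15285 at E13 and at 6552 and 6291 in the recombined tissue (-1.37 ± 0.11), Hoxd3 at 2740.0, 2939 and 2384 at E13 and at 780.1 and 901 in the recombined tissue. Hoxd1 stood at 2239.6, 904 and 878 at E13 and at 209 and 294 in the recombined tissue (-1.53 ± 0.35). These recombined arrays were all below E13. Hoxd11, which acts in the MM, stood at 393, 518 and 257 at E13 and at 518 and 564 in the recombined tissue, with overlap. Hoxb7, an old marker of the UB lineage, stood at 1501, 2726 and 2279.6 at E13 and at 879 and 499 in the recombined tissue and was called lower with replicate 2 alone (-1.63).

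Most cell cycle genes measured were lower, by less than 3-fold. Of 32 genes listed for DNA replication and mitosis, 30 were measured and 0 were called by limma, yet 23 were lower and 0 higher at an unadjusted p under 0.05, 22 after adjustment, and the median was -0.87. Over all genes 24.5% were lower unadjusted and 19.2% after adjustment. Mcm7, a part of the replication helicase, stood at 33279, 33506 and 32986 at E13 and at 11928 and 14944 in the recombined tissue (-1.30 ± 0.11, limma adjusted p = 1.18e-06). Pcna, the replication clamp, stood at 61972, 66937 and 72364 at E13 and at 32126 and 40007 in the recombined tissue. Both recombined arrays were below all of E13. Mki67, the antigen Ki-67, stood at 16282, 24453 and 19979 at E13 and at 14783 and 18802 in the recombined tissue (-0.26 ± 0.24). Cdk1, the mitotic kinase, stood at 18339, 20409 and 22301 at E13 and at 14584 and 17011 in the recombined tissue (-0.36 ± 0.21), so these 2 genes of dividing cells differed least among those named. Recombined replicate 1 was below all of E13 in 29 of the 30 genes, against 41.6% of all genes, and replicate 2 in 25, against 36.4%. At 2-fold in place of 3-fold, 11 of the 30 were called lower, against 4.45% of all genes.

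Inhibitors of cell division and targets of p53 were mostly higher. Of 14 listed, 8 were measured, 1 rose and 0 fell, with a median of 1.18. At a limma adjusted p under 0.05 and any fold 6 were higher, against 18.4% of all genes. Ccng1, a target of p53, stood at 4396, 4220.3 and 4544 at E13 and at 15993 and 14343 in the recombined tissue (1.73 ± 0.14) and lost its call when arrays were centred on their medians. Cdkn1a, the inhibitor p21, stood at 1691, 1468 and 1851 at E13 and at 4482 and 4065 in the recombined tissue (1.23 ± 0.20), while its other probe set differed by 2.36 and was called. Cdkn2c stood at 877, 906 and 659 at E13 and at 3455 and 2435 in the recombined tissue (1.56 ± 0.19); another of its probe sets differed by 0.10. Cdkn2b, an inhibitor of early cell cycle kinases, stood at 43.2, 87.8 and 97.0 at E13 and at 1275 and 187 in the recombined tissue, bright on replicate 1 alone. With replicate 1 alone 3 of the 8 rose, 2 did without E13 replicate 1 or 2 or with all probe sets of each gene averaged, and 0 with a pseudocount 4 times as large.

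No respiratory chain or ribosomal protein gene measured was called, and many were lower by less than 3-fold. Of 26 genes listed for the respiratory chain and ATP synthase, 22 were measured and 0 were called by limma, 14 were lower and 0 higher at an unadjusted p under 0.05 and 9 were lower after adjustment, and the median was -0.31, or -0.19 with quantile normalization. Atp5f1a, a subunit of the synthase, stood at 42575, 45498 and 53173 at E13 and at 35021 and 29208 in the recombined tissue (-0.55 ± 0.11), while Cox4i1, of the last complex of the chain, stood at 46807, 43976 and 50406 at E13 and at 50801 and 44868 in the recombined tissue with overlap. Of 28 ribosomal protein genes listed, 16 were measured and 0 were called by limma; 12 were lower and 0 higher at an unadjusted p under 0.05 and 7 were lower after adjustment. Their median of -0.30 was 0.01 with quantile normalization and -0.12 against E13 replicate 1 alone. Over all genes 24.5% were lower at an unadjusted p under 0.05 and 19.2% after adjustment. Recombined replicate 1 was below all of E13 in 17 of the 22 respiratory genes and 15 of the 16 ribosomal genes, against 41.6% of all genes. For replicate 2 these counts were 15 and 10, against 36.4%. Rpl11 stood at 109260.0, 112998 and 129140.0 at E13 and at 83712 and 79871 in the recombined tissue (-0.51 ± 0.10). Of 23 genes listed for making cholesterol and fatty acids 19 were measured and 0 were called by limma, with 7 higher and 1 lower at an unadjusted p under 0.05 and a median of 0.21. Insig1, which restrains the pathway, differed by 0.79 ± 0.18, and the fatty acid synthase gene Fasn by -0.21 ± 0.19.

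Neural, skeletal muscle and cartilage genes gave calls in both directions, in lists with few genes measured. The shares higher and lower were 15.4% and 7.69% for neural genes and 22.2% and 22.2% for muscle and cartilage genes. Over all genes they were 5.03% and 1.05%. Of 20 neural and Schwann cell genes listed, 13 were measured, 2 rose and 1 fell, with a median of 0.62; 2 of the 13 passed the filter only through the recombined arrays. Prph, an intermediate filament of peripheral neurons, stood at 799.7, 708 and 643 at E13 and at 10382 and 2764 in the recombined tissue (2.53 ± 0.37). Stmn2, a neuronal tubulin regulator, stood at 1567, 1095 and 1555 at E13 and at 10651 and 2953 in the recombined tissue. In both, replicate 1 was more than 3 times as high as replicate 2. Isl1, a homeobox gene of sensory and sympathetic neurons, stood at 3231, 3822 and 6632 at E13 and at 1419 and 198 in the recombined tissue (-2.38 ± 0.46). With replicate 1 alone 5 rose and 0 fell, and with replicate 2 alone 1 rose, Prph, and 1 fell, Isl1; against E13 replicate 1 alone or with a pseudocount 4 times as large 1 rose. Of 18 genes listed for skeletal muscle and cartilage, 9 were measured, 2 rose and 2 fell. The embryonic muscle myosin gene Myh3 rose from 100.3, 26.5 and 55.1 to 1498 and 1071. The muscle actin gene Acta1 rose from 411, 285 and 292 to 3032 and 745. Both passed the filter on dim signal only through the recombined arrays, and neither passed it with either recombined array left out. Under the 60th percentile filter or a pseudocount 4 times as large 0 rose, and under either other scaling 1 did. Those that fell were the cartilage collagens Col2a1 and Col9a1, and the count of 2 that fell was the same in every setting tried.

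The later kidneys of the series place some of these levels, given as mean signal ± SD (E13 n = 3, E18 n = 4, week 4 n = 3, recombined n = 2) and with no test of their own. Slc34a1, the phosphate carrier of the proximal tubule, stood at 6329 ± 1623 at E18 and at 137565 ± 16100.1 at week 4, and at 541 ± 382 in the recombined tissue. Slc12a1, the salt carrier of the thick ascending limb, stood at 15991 ± 2042, 41702 ± 6111 and 115 ± 56.9 in the same order, and the water channel Aqp2 at 5828 ± 2877, 31680.1 ± 2094 and 77.6 ± 5.95. Slc13a3, which rose against E13, stood at 1979 ± 601, 65417 ± 6935 and 1264 ± 428. For each of these 4 genes the recombined mean was below the means of both later stages.

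Genes of forming nephrons and of the stroma gave other orders. Wnt4 stood at 6701 ± 1127 at E18 and 352 ± 315 at week 4, both with means below the 12079.7 ± 3254 of the recombined tissue. Osr2 stood at 3841 ± 1554 and 893 ± 120.3 in the later kidneys against 9215 ± 1326. Hsd11b2 was at 4098 ± 747 at E18 and at 19680.2 ± 1619 at week 4, against 27602 ± 2005 in the recombined tissue. Eya1 had a lower level at each later stage, 6263 ± 643 at E18 and 1185 ± 67.7 at week 4, and its recombined level of 4779 ± 2023 lay between them. For Col6a3, Csf1r and Igf1 the recombined mean was above that of every kidney stage: 75579 ± 1735 against 9366 ± 702 at E18 for Col6a3, 8999 ± 202 against 2076 ± 187 at week 4 for the macrophage receptor Csf1r, and 59797 ± 19547 against 7354 ± 2019 at week 4 for Igf1. Mgp, an inhibitor of calcification, stood at 14599 ± 1498 at E18 and 69610.2 ± 4508 at week 4, the latter within its SD of the recombined 69683 ± 3702. Igf2 had its lowest mean at week 4: it stood at 96322 ± 10234 at E13, 86140.5 ± 11681 at E18, 1613 ± 697 at week 4 and 89989 ± 18130.5 in the recombined tissue. Tek and Plvap, endothelial genes that fell, stood at 12029 ± 1042 and 17991 ± 1434 at week 4, above their E13 levels, and at 399 ± 144 and 619 ± 631 in the recombined tissue.

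The plainest difference between the recombined arrays lay in hypoxia and glycolysis, where the mean of the pair shows little. Of 33 genes listed, 31 were measured, 4 rose and 0 fell, with a median of -0.09. Yet 30 of the 31 were higher on replicate 1 than on replicate 2, by a median of 1.16, where 44.4% of all 11920 genes were higher on replicate 1 and the median gap was -0.06. In 8 of the 31 the gap was at least 3-fold, against 0.537% of all genes. With 1 array on each side there is no test of this gap.

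Against E13 the arrays fell on different sides. In 13 of the 31 genes replicate 1 was above and replicate 2 below all 3 E13 arrays, against 2.14% of all genes. Ldha, the enzyme that makes lactate, stood at 50401, 48101 and 49586 at E13 and at 52413 and 21096 in the recombined tissue (0.09 and -1.22 against the E13 mean). Replicate 1 was just above the E13 arrays and replicate 2 well below. Aldoc, an aldolase, stood at 796, 776 and 563 at E13 and at 3034 and 116 in the recombined tissue, with replicate 1 far above and replicate 2 far below the E13 arrays. Slc16a3, the exporter of lactate, stood at 2284, 2029.7 and 1833 at E13 and at 4905 and 454 in the recombined tissue. It had the same order. Pgk1, a glycolytic kinase, stood at 67573, 72462 and 84643 at E13 and at 76595 and 33816 in the recombined tissue. Slc2a1, the main glucose transporter, stood at 7839, 6888 and 6029 at E13 and at 7889 and 4103 in the recombined tissue.

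In each of the 4 genes that rose, replicate 1 was the higher array. Adm, adrenomedullin, stood at 24.2, 30.8 and 256 at E13 and at 3755 and 378 in the recombined tissue, with replicate 2 close to the highest E13 array. Pfkp, a phosphofructokinase, stood at 1844, 1548 and 1400.2 at E13 and at 12946 and 3549 in the recombined tissue. Egln3, an oxygen-sensing hydroxylase, stood at 826, 723 and 389 at E13 and at 4527 and 1874 in the recombined tissue. In all 3 replicate 2 was above E13 but less than 3-fold above its mean on the log2 scale with the pseudocount. P4ha2, which hydroxylates collagen, had the smallest gap, at 2345, 2569 and 2341 at E13 and at 11621 and 7315 in the recombined tissue (1.82 ± 0.23); its other probe set (1.16) was not called. Vegfa, the vessel growth factor, stood at 6151, 4186 and 3338 at E13 and at 11958 and 9712 in the recombined tissue (1.24 ± 0.29), also above E13 on both arrays and below 3-fold. With replicate 2 alone 0 of the 31 rose and 2 fell, the glycolytic enzyme genes Tpi1 (-1.88) and Eno1 (-1.99), while with replicate 1 alone 6 rose and 0 fell; with a pseudocount 4 times as large 1 rose.

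**Figure D4:**
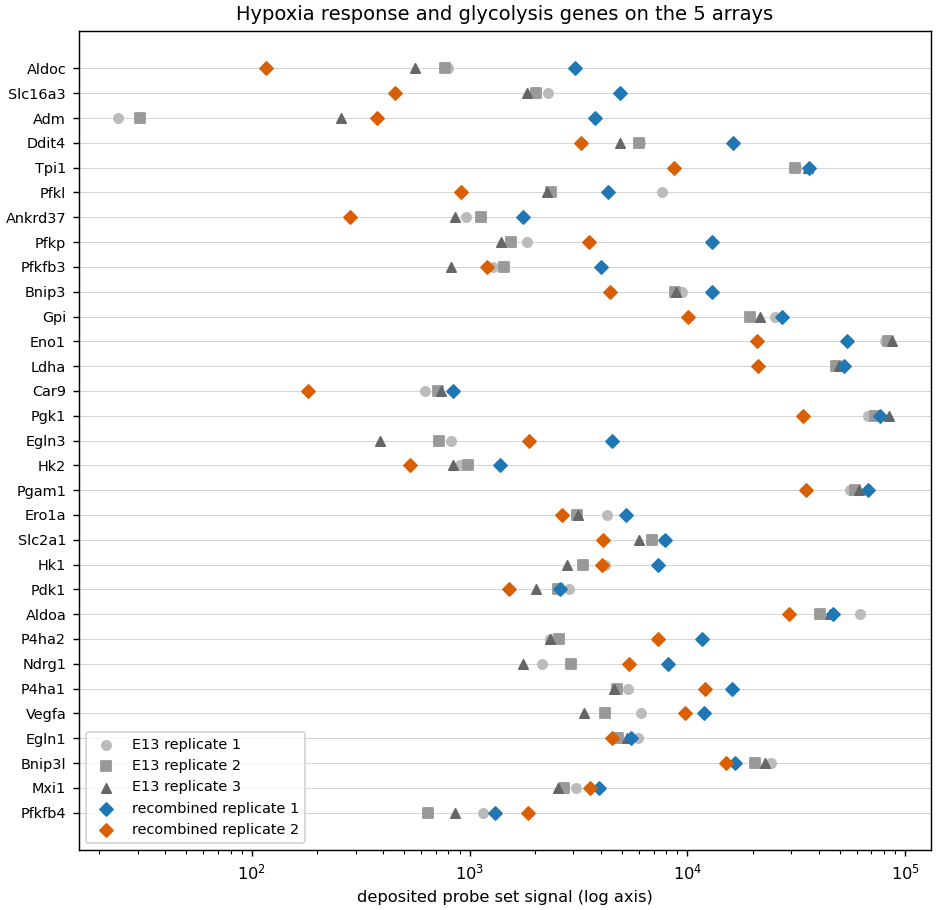
Deposited signal (log axis) of the 31 hypoxia and glycolysis genes on the 3 E13 arrays (grey) and the 2 recombined arrays (blue, replicate 1; orange, replicate 2), ordered by the gap between the recombined arrays, which is widest for Aldoc at the top. Levels may be compared along a row and not between rows. Replicate 1 lies to the right of replicate 2 in 30 of the 31 rows, the exception being Pfkfb4.

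Hypoxia-inducible factors are known to bind elements with the core ACGTG, and the promoters of Ldha and Aldoc are shown since their genes part the 2 arrays. The stretches are the 250 bases before the start, 5′ to 3′ (RefSeq, build GRCr8), with matches on either strand in capitals.
Ldha: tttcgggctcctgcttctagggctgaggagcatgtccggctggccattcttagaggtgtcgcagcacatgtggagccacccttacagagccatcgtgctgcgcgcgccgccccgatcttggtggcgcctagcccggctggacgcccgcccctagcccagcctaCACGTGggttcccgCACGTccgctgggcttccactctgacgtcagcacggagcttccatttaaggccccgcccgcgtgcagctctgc
Aldoc: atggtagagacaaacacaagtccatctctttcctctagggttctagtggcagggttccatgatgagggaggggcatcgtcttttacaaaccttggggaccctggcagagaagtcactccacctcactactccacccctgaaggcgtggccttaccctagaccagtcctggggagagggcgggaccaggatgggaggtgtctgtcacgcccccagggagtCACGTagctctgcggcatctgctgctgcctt
For Ldha (chr1:106507842-106508091, plus strand) there are 3 matches, which begin 87, 86 and 73 bases before the start; the first pair overlap, since CACGTG reads the same on both strands. For Aldoc (chr10:63715294-63715543, plus strand) there is 1, beginning 31 bases before the start. The motif was in 4641 of 27457 promoters of this length (16.9%) and in 13 of the 29 found for the 33 listed genes (44.8%), 1 of them that of Gapdh, whose level was not analysed here. A match is a description of sequence, not of binding.

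Other genes that separated the recombined arrays were picked by the size of the gap alone and are given without a test. Ccl7, a monocyte chemokine, stood at 577, 176 and 315 at E13 and at 9807 and 518 in the recombined tissue, so replicate 2 lay within the E13 range. Prss35, a serine protease-like protein, stood at 1319, 2052 and 2436 at E13 and at 49498 and 5907 in the recombined tissue. S100a9, a protein of neutrophils and monocytes, stood at 205, 21.6 and 42.8 at E13 and at 2266 and 40.6 in the recombined tissue. In all of them replicate 1 was the higher. Mgarp, a mitochondrial protein, stood at 874, 917 and 1043 at E13 and at 2004 and 129 in the recombined tissue. Pcp4, a calmodulin regulator, stood at 186, 142 and 53.3 at E13 and at 6227 and 897 in the recombined tissue. In the other direction Cldn7, a tight junction protein of the collecting duct, stood at 495, 883 and 319.6 at E13 and at 369 and 2843 in the recombined tissue, so replicate 2 was above and replicate 1 within the E13 range. The methionine pathway enzyme gene Cbs, at 55.9 and 1162 against 473, 415 and 756, and Espn, an actin bundler, at 272 and 1757 against 3285, 2374 and 1675, were also higher on replicate 2.

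Ureteric, progenitor and early nephron groups leaned towards replicate 2, as did several other groups. Replicate 1 was the higher array in 2 of 12 ureteric tip genes, 6 of 22 trunk and collecting duct genes, 2 of 15 progenitor genes and 4 of 20 early nephron genes, where 44.4% of all genes were. Replicate 1 was also the higher in only 3 of 22 endothelial genes and 4 of 16 stroma genes. It was likewise the higher in 4 of 30 genes of DNA replication and mitosis, 3 of 21 HOX genes and 3 of 16 ribosomal protein genes. For proximal tubule and podocyte genes the counts for replicate 1 were 11 of 27 and 7 of 12. It was the higher one in 23 of 23 macrophage genes, 16 of 18 smooth muscle genes and 11 of 13 neural genes. The part of macrophage, smooth muscle or neural RNA in the lower ureteric and nephron levels of replicate 1 was not tested.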

How the data were processed

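RNA of 12 samples was measured on Affymetrix rat arrays, 1 array a sample: kidney of E13 (3), E18 (4) and week 4 (3), and recombined UB and MM (2). Per the labels' protocols, kidneys were processed right after dissection and 6 µg of total RNA was made into biotinylated cRNA. The deposited table gives an intensity (signal) per probe set on a linear scale. GCOS is the software named in the submitters' processing notes; which version, algorithm and scaling it used is not given in the sources used here. With the lowest and highest 2% of values left out, the arrays had nearly 1 mean (2500.6 to 2500.9), and array medians were 799.4 to 1020.3. Such scaling to 1 mean makes all differences relative to the array's total signal. No 2 arrays were identical. The number of arrays, 3 and 2, limits the precision.

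After 57 control probe sets were left out, 31042 remained: 20826 with 1 gene symbol in the platform annotation, 436 with several and 9780 with none; 20758 symbols were matched by gene ID to RefSeq. Probe sets above the 40th percentile of their array on at least 2 of the 12 arrays were kept (22599; 8443 were removed). The test was limma 3.58.1 (R 4.3.3), lmFit and eBayes with an intensity trend, on log2(signal + 271), 271 being the 25th percentile of all values. All 12 arrays entered 1 fit with 4 group means, two-sided, with Benjamini-Hochberg adjustment. Probe sets were called at an adjusted p under 0.05 with at least a 3-fold difference. A gene with several kept probe sets (3451 genes) was taken by the one with the highest mean over the 12 arrays. Differences understate the change of dim genes. Tables and figures were made with Python 3.11.15 and pandas 2.3.3. The procedure was tested on simulated data of this comparison (22855 probe sets tested), where it called 1.49% of 67 probe sets changed 2-fold, 79.1% of 67 changed 4-fold and 89.4% of 66 changed 8-fold, and 1 unchanged probe set. The simulated noise was independent between probe sets, with 1 SD shared by the 4 groups. Shifts of a whole array and a wider spread of the recombined pair were not in it, so the error rate of the real comparison is not known from it.

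The comparison and the gene lists were chosen with earlier results of these data known, so lists are described by counts and medians with no test. Genes were named by this rule: the 20 highest and 20 lowest called genes with 1 symbol that is not an unnamed clone and with arrays that do not overlap; list members marked for printing whatever they show; the 3 kept members of each list with the largest difference; and the 10 genes each way with the largest gap between the recombined arrays beyond the E13 range. Other list members named are examples chosen after their values were seen: Cd163, Cd3e, Cldn5, Col14a1, Cx3cr1, Cxcl1, Cxcl12, Efemp1, Eno1, Fabp4, Gpc3, Havcr1, Hey1, Il1b, Il33, Itgam, Lmod1, Ltbp2, Ms4a1, Myocd, Notch3, P4ha2, Papss2, Pf4, Rgs5, Sfrp2, Tnf, Tpi1 and Trem2. Alternatives tried were other pseudocounts, scalings, filters, variance models, folds, probe set rules, sets of arrays and a replicate block.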

Additional observations from a re-analysis of the deposited data

How the results depend on the processing

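The count of 1098 called probe sets (892 higher, 206 lower) depended most on the pseudocount and on the fold. Without a pseudocount 1733 were called and 402 of them were lower, with one 4 times as large 495 (419 higher, 76 lower), and at 2-fold 2839 (1961 higher, 878 lower). Centring each array on its median called 318 lower; it moved the median of all differences from -0.0043 to -0.20 (log2), and 68.9% of calls were then higher, against 81.2%. Leaving out 1 array at a time gave 918 to 1307 calls, 715 to 1009 higher and 198 to 298 lower. The cause of these shifts was not tested, beyond the dim values that a pseudocount pulls together and the lower bar of 2-fold. The total stayed within 1.5 times with quantile normalization (1090), no filter (1116), the 60th percentile filter (949), no intensity trend (1097), only the 5 arrays compared (1086) and E13 replicate 1 alone as reference (1163). Whether the replicate numbers of the labels pair the samples could not be decided. Deviations of same-numbered arrays correlated at -0.037 and 0.086, but the deviations of 2 recombined arrays from their mean mirror each other. With the replicate block 1095 were called, 1058 of them shared with the 1098. Of 236 genes named under the rule, 110 were called. A gene that did not pass the filter in a setting was not compared there and is not counted as having lost its call. Lilrb4, for example, was not compared with either recombined array left out. Over 3475 comparisons of a gene with a setting, 3342 kept their direction and side of the threshold, 65 lost the call, 68 gained one and 0 reversed; the larger pseudocount took 27 calls, and leaving out recombined replicate 1 took 11 and added 8. With 2 and 3 arrays, and with signals near the pseudocount of 271 carrying little precision, differences of dim genes are the least certain.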

Other observations

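A further 4 gene groups are not described above. Their lists were written after values of these data were seen, so their counts are a description with no test; over all genes 5.03% were called higher and 1.05% lower. Of 34 genes listed for the response to interferon and for MHC class I, 31 were measured, 18 rose and 0 fell by limma, with a median difference of 1.80 (log2). Ifitm1, a membrane protein that blocks virus entry, stood at 1076, 1495 and 1518 at E13 and at 38627 and 25035 in the recombined tissue (4.27 ± 0.22). B2m, the light chain of MHC class I, stood at 8210.5, 5799 and 7969 at E13 and at 63156 and 46464 in the recombined tissue (2.86 ± 0.16). Gbp2, Psmb8, Psmb9 and Tap1 rose as well; Tap1, Ddx60 and Epsti1, all among the 18, passed the filter on dim signal only through the recombined arrays. Of the others, Isg15 (0.65 ± 0.37), Mx1 (0.74 ± 0.24) and Irf7 (0.64 ± 0.22), which interferon is known to induce, were not called. Replicate 1 was the higher array in 24 of the 31. The count of 18 was 14 with replicate 2 alone and 17 with replicate 1 alone. Of 19 immediate early genes, which cells switch on within minutes of a stimulus or of handling, 18 were measured, 7 rose and 0 fell, with a median of 1.19. Egr1 stood at 1990.2, 3725 and 2957 at E13 and at 13520.2 and 28741 in the recombined tissue (2.70 ± 0.31). Fos, Junb, Egr2, Ier3, Klf4 and Atf3 also rose; Jun (1.43 ± 0.13) did not reach 3-fold. Fos, Egr2 and Atf3 passed the filter on dim signal only through the recombined arrays, and Fos and Atf3 did not pass it with either recombined array left out. Of the 7, 4 were still called with replicate 2 alone and 5 with replicate 1 alone, when Klf6 was called too (1.67).

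In the other two groups calls were lower only. Of 16 genes for the binding, synthesis and breakdown of retinoids, signals known to support Ret in the kidney through the stroma, 15 were measured, 3 fell and 0 rose, with a median of -0.98. These were the binding proteins Crabp1 and Crabp2 and the enzyme Cyp26b1, which breaks retinoic acid down; another probe set of Cyp26b1 (-1.42) was not called. Crabp1 stood at 47517, 37705 and 37558 at E13 and at 10562 and 10328.5 in the recombined tissue (-1.93 ± 0.22). Aldh1a1 (-1.35 ± 0.16) and the receptor gene Rarb (-1.31 ± 0.14) did not reach 3-fold. Of 18 genes known for growth and chromatin in early embryos, 16 were measured, 9 fell and 0 rose, with a median of -1.67. Mdk, the growth factor midkine, stood at 82042, 75215 and 92115 at E13 and at 11957 and 27999 in the recombined tissue (-2.16 ± 0.24). Hmga1, Hmga2, Mycn, Sox11, Lmnb1, Igdcc3, Igf2bp1 and Dusp9 were the others; Igdcc3, Igf2bp1 and Dusp9 are also given above. With replicate 1 alone all 9 kept their call. With replicate 2 alone 5 of the 9 did, Hmga2, Mycn, Lmnb1 and Mdk (-1.56) losing theirs, and Lin28a was called lower as well (-1.66).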
